A study of Caenorhabditis elegans with 30 samples.

Results

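The histone genes of C. elegans in these libraries were the 80 genes whose symbol is his- or hil- followed by a number, out of 46934 genes in the count table. They were chosen by name, not by their values. Of the 80, 33 passed a read minimum, set at over 10 reads in 2 or more of the 30 libraries, and 47 did not. Among those 47, 20 had no read in any library and the highest single count was 16 reads.

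Core histones (H2A, H2B, H3 and H4) form the nucleosome, and linker histones (H1) bind the DNA between nucleosomes. Transcripts of replication-dependent core histone genes normally end in a stem-loop and carry no poly(A) tail, and in C. elegans the stem-loop binding protein CDL-1 acts in their expression. Transcripts of replacement histones such as H3.3, and of linker histones in this animal, are polyadenylated and are made outside S phase too.

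The study asked what the loss of SET-26, a protein that binds methylated histone H3, of HCF-1, a cofactor of chromatin regulators, or of the class I histone deacetylase HDA-1 does to gene expression in the soma. It used 3' mRNA sequencing, which primes on poly(A) and reads transcript ends, on 30 whole-worm libraries in 15 groups of 2. All hermaphrodites carried glp-1(e2141), a temperature-sensitive allele that removes the germline. The genotypes were set-26(-), which is glp-1(e2141);set-26(tm2467), hcf-1(-), which is glp-1(e2141);hcf-1(pk924), and control, which is glp-1(e2141) alone. Each mutant was 1 strain, so the allele and the strain's other differences cannot be told apart. All worms grew on bacteria with the empty vector L4440 (EV) until day 1 of adulthood, when some were collected. The rest of each population was split between plates with hda-1 RNAi and plates with EV, and was collected on day 3 or day 12.

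Libraries held 6045498 to 17748121 counted reads (median 8323966). Counts are given as reads or as CPM, reads scaled to the library total with TMM factors, and a count of 0 allows up to 0.169 to 0.496 CPM, counting error only. As a check of the labels, hda-1 reads were higher, not lower, in the 12 libraries labelled hda-1 RNAi (252 to 1917 CPM, median 1248) than in the 18 EV libraries (20.5 to 117 CPM, median 28.3), so these reads did not show a knockdown, and hda-1 RNAi below means the libraries labelled so. hcf-1 had 1.07 to 3.35 CPM in the 10 hcf-1(-) libraries and 4.33 to 21.0 CPM in the other 20. set-26 had 11.9 to 23.4 CPM in set-26(-) libraries and 7.64 to 21.3 CPM in the others, and 3' end reads outside a deleted part check nothing. In whole-worm RNA, fewer cells of a type and less RNA per cell cannot be told apart.

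Histone genes held 0.0420% to 0.184% of a library's reads (median 0.0705%). Pooled over the 30 libraries, whose depth and make-up differ, 4 genes gave 81.7% of all histone reads. They were his-72, an H3.3 gene (25.3%), his-35, an H2A gene (24.7%), his-37, an H4 gene (21.7%), and his-71, the other well-read H3.3 gene (9.94%). The linker genes hil-1 (3.61%), hil-3 (3.3%) and his-24 (2.48%), and the H2B gene his-41 (1.68%), came next. The make-up changed between libraries: in control worms at day 1, his-37 had 354 and 259 CPM and his-72 had 112 and 110 CPM, and core genes with no annotated 3' UTR held between 0.667% and 23.6% of a library's histone reads.

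The members differed in whether the annotation (Ensembl release 115, WBcel235) gives them a 3' UTR, and reads were counted only where they overlapped an annotated exon. A 3' UTR was annotated for 16 of the 80, of which 12 passed the read minimum, and not for 64, of which 21 passed. Reads past the coding end of those 64 were not counted, so shares and reads of different genes are given as read totals and not as a comparison of their expression. Reads that matched several near-identical histone genes were dropped, and 36 members share their symbol with another gene ID. The members were described in 4 sets: 62 core genes with no annotated 3' UTR (21 passed), 4 core genes with one (his-35, his-37, his-41 and his-47 (WBGene00001931), all passed), 5 H3.3 genes (his-71, his-72 and his-74 passed, his-69 and his-70 did not) and 9 linker genes (his-24, hil-1, hil-2, hil-3 and hil-7 passed).

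**Figure D1:**
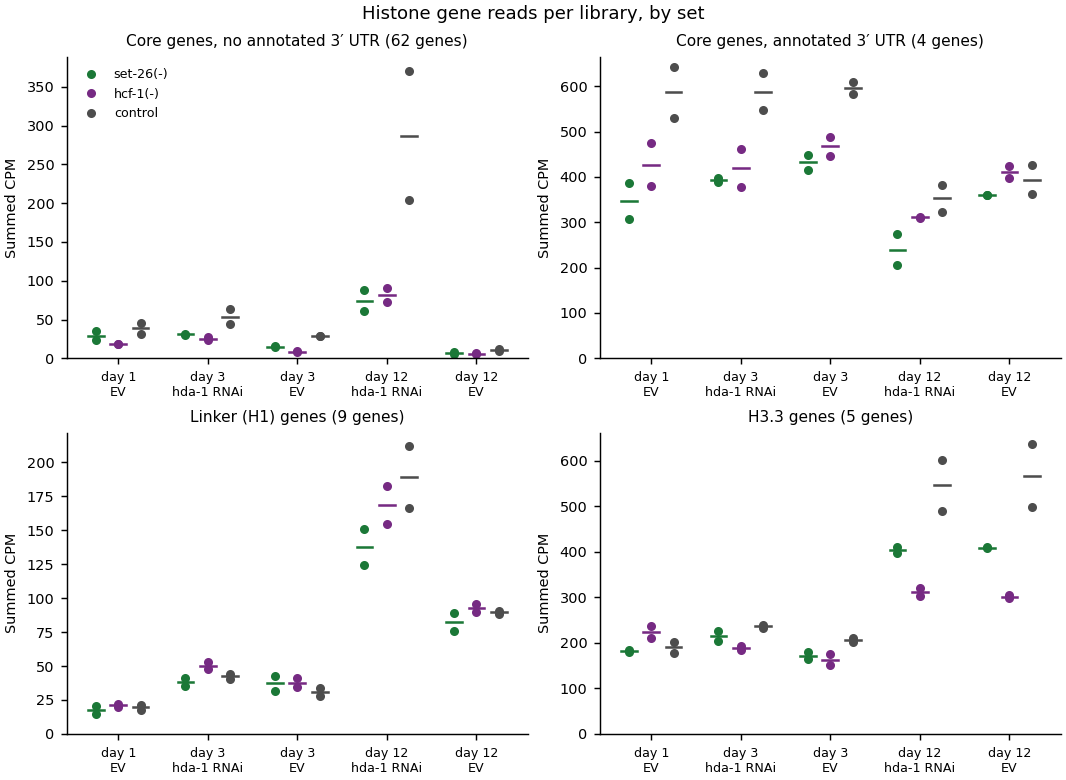
Summed CPM (y axes, linear from 0) of the 4 histone gene sets in each of the 30 libraries, by day and by food. Points are libraries and bars are means of 2. The core genes with no annotated 3' UTR reach 60.9 to 370 CPM on hda-1 RNAi at day 12 and stay at or below 46.2 CPM in all EV libraries, while the H3.3 sums on RNAi and EV lie side by side.

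Reads of core histone genes that lack an annotated 3' UTR were many times higher on hda-1 RNAi than on EV at day 12, in all 3 genotypes. Summed over all 62 genes, whether or not they passed the read minimum, they had 204 and 370 CPM in control worms on hda-1 RNAi, against 9.32 and 12.3 CPM in control worms on EV. In set-26(-) worms the sums were 60.9 and 87.7 CPM on hda-1 RNAi and 5.66 and 8.13 CPM on EV. In hcf-1(-) worms they were 72.9 and 91.0 CPM on hda-1 RNAi and 5.45 and 6.63 CPM on EV. Every RNAi library lay above every EV library, and within the populations that were split between foods the ratio of RNAi to EV was 21.9 and 30.1 in control, 10.8 and 10.8 in set-26(-), and 13.4 and 13.7 in hcf-1(-). The sums of the other core genes, those with an annotated 3' UTR, did not show this: they had 324 and 382 CPM on hda-1 RNAi and 425 and 362 CPM on EV in control worms. In the mutants these sums were lower on hda-1 RNAi. They had 205 and 274 CPM against 361 and 359 CPM on EV in set-26(-), and 309 and 312 CPM against 397 and 424 CPM in hcf-1(-).

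Genes of all 4 core classes took part. In control worms the H2A genes of the set averaged 90.6 ± 40.5 CPM on hda-1 RNAi and 1.72 ± 0.507 CPM on EV (SD, n = 2 each, as for the next 3 classes). H2B genes averaged 51.5 ± 6.89 CPM on hda-1 RNAi, against 0.931 ± 0.615 CPM on EV. H3 genes averaged 56.2 ± 26.7 CPM on hda-1 RNAi, against 3.13 ± 0.785 CPM on EV, and H4 genes 88.6 ± 43.5 CPM on hda-1 RNAi, against 5.02 ± 1.21 CPM on EV. In none of the 4 classes did an EV library reach an RNAi library.

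The reads came from several loci. The 4-gene cluster his-59 to his-62 on chromosome IV (7485834 to 7488659, WBcel235) had 805 and 1288 reads in control worms on hda-1 RNAi, against 13 and 7 reads on EV. The cluster his-1 to his-4 on chromosome V (16040144 to 16042831) had 647 and 1009 reads on hda-1 RNAi, against 13 and 18 on EV. The 5 genes on chromosome V at 8532715 to 8536716, his-5 to his-8 among them, had 223 and 423 reads on hda-1 RNAi, against 6 and 1 on EV. The 13 genes on chromosome II (13817760 to 13828697) had 170 and 150 reads on hda-1 RNAi, against 2 and 3 on EV. The 3 genes his-35, his-37 and his-41 on chromosome V (9544659 to 9547607) behaved otherwise, with 3301 and 3422 reads on hda-1 RNAi and 4288 and 2653 on EV.

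**Figure D2:**
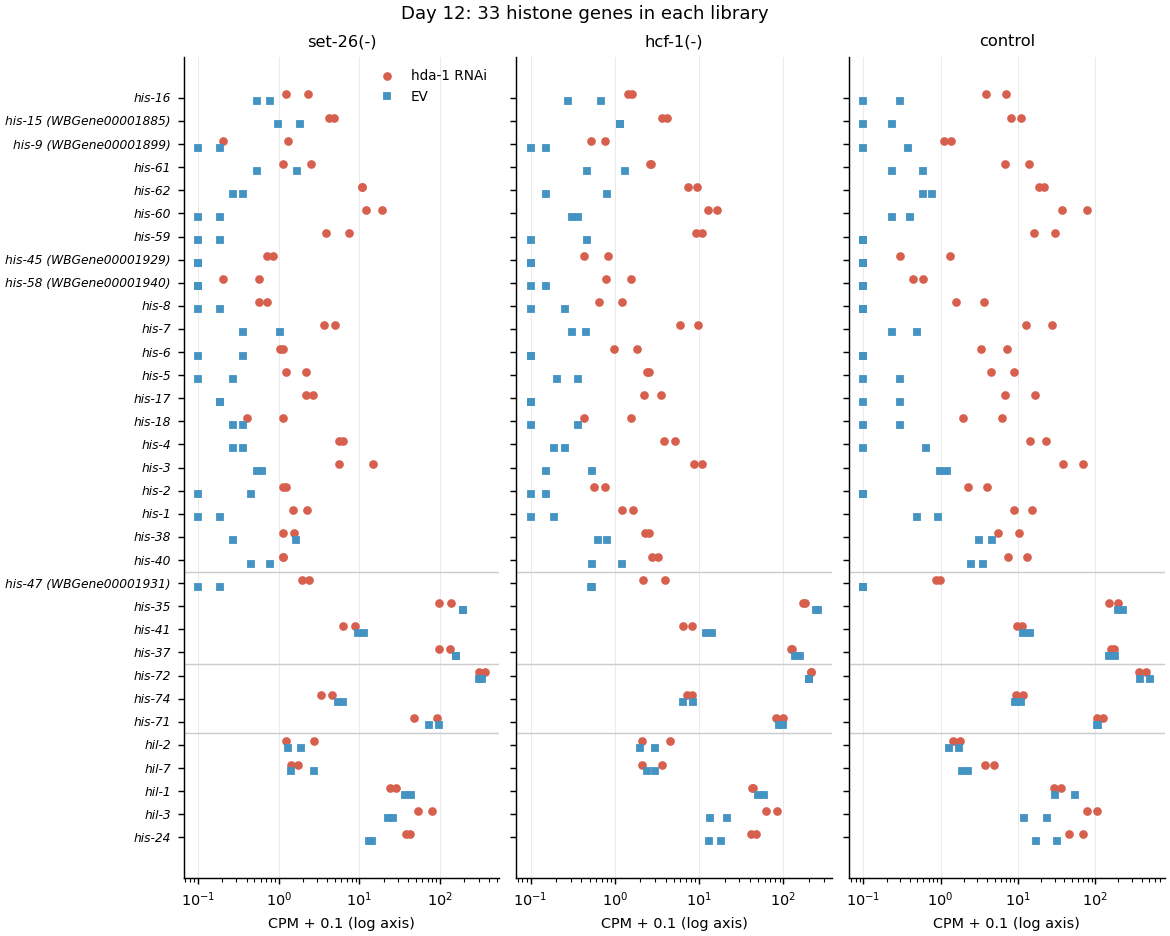
CPM plus 0.1 (x axes, log scale) of the 33 histone genes over the read minimum at day 12, for hda-1 RNAi (circles) and EV (squares), 2 libraries each, in 3 genotypes. Rows are grouped, top to bottom, as core genes with no annotated 3' UTR, core genes with one, H3.3 genes and linker genes. In control worms, his-60 stands at 36.9 and 77.6 CPM on hda-1 RNAi and at 0.298 and 0.137 CPM on EV, while his-72 overlaps between foods.

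Tested gene by gene with edgeR's quasi-likelihood test and Benjamini-Hochberg adjustment over all genes, 14 of 29 members tested were called higher (adjusted p under 0.05) on hda-1 RNAi in control worms and 0 lower, where 0.911% of all genes tested were called higher and 0.0772% lower. In hcf-1(-) worms 12 of 26 were higher and 0 lower (4.12% of all genes were higher and 1.26% lower), and in set-26(-) worms 9 of 26 were higher and 0 lower (0.918% and 0.294%). Of the members tested, 16 in control and 11 in each mutant passed the read minimum only through RNAi libraries. Such genes had to differ, so these counts are a description, and reads and ratios with no test are given for such genes below. Of the members over the minimum on EV as well, 1 of 13 was called in control (hil-3). In set-26(-) 2 of 15 were called (hil-3 and his-24), and in hcf-1(-) 3 of 15 (hil-3, his-24 and his-15 (WBGene00001885)), all higher. The share called among all genes over the minimum on EV as well is not given. The shares above also count genes that passed only through RNAi libraries. Whether these members were called more often than other such genes was thus not tested. Without any minimum, 19 of 54 members with a read were called higher in control (2.79% of all genes), 20 of 58 in hcf-1(-), where 1, his-41, was lower (4.98% of all genes were higher), and 14 of 51 in set-26(-) (2.43%). Called in all 3 genotypes were 7 members: his-3, his-4, his-17, his-59, his-60, his-62 and the linker gene hil-3. All except hil-3 passed the minimum only through RNAi libraries, and the share of all genes called in all 3 is not given.

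The H4 gene his-60 had 377 and 698 reads in control worms on hda-1 RNAi and 3 and 1 reads on EV, a ratio of 243 in summed reads scaled to library size. It had 118 and 204 reads on hda-1 RNAi and 0 and 1 reads on EV in set-26(-) worms, a ratio of 363 with a 95% counting interval of 64.8 to 14397. In hcf-1(-) worms it had 115 and 384 reads on hda-1 RNAi and 4 and 3 on EV, a ratio of 66.2. his-60 passed the read minimum only through RNAi libraries, so these values are a description.

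The neighbouring H3 gene his-59 had 165 and 272 reads in control worms on hda-1 RNAi and no read on EV, so its level was at least 132-fold higher (against a floor of 3 reads over the group). The H2A gene his-3 had 390 and 634 reads on hda-1 RNAi and 9 and 8 on EV in control worms, a ratio of 54.6. The H2B gene his-62 had 194 and 193 reads on hda-1 RNAi and 5 and 5 on EV, a ratio of 35. The H4 gene his-1 had 8.90 and 15 CPM on hda-1 RNAi and 0.397 and 0.820 CPM on EV in control worms, a ratio of 20.5. The H2B gene his-15 (WBGene00001885) was over the minimum on both foods in hcf-1(-) worms, with 3.54 and 4.01 CPM on hda-1 RNAi and 1.06 and 1.05 CPM on EV (log2 fold change 1.88, SE 0.38, edgeR adjusted p = 0.0251).

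The divergent pair his-38 (H4) and his-40 (H3) on chromosome X (7309564 to 7310520) also has no annotated 3' UTR. Neither gene was called in control or hcf-1(-) worms. In set-26(-) worms his-38 was not called and his-40 was below the read minimum. In control worms his-40 had 7.43 and 13.0 CPM on hda-1 RNAi and 2.38 and 3.42 CPM on EV (log2 fold change 1.84, SE 0.41, edgeR adjusted p = 0.104). With the shared population as a block, the edgeR adjusted p of his-40 was 2.27e-06 in control and 0.00287 in hcf-1(-). That of his-38 was 0.0230 in control and 0.00868 in hcf-1(-).

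Of the core genes with an annotated 3' UTR, his-35, his-37 and his-41 were not called in any genotype, with log2 fold changes of -0.82 to 0.03. In set-26(-) worms his-35 had 95.7 and 135 CPM on hda-1 RNAi and 193 and 191 CPM on EV (log2 fold change -0.70, edgeR adjusted p = 0.200, and 0.00443 with the population as a block). his-47 (WBGene00001931) passed the read minimum in both mutants, only through RNAi libraries and from few reads: 42 on hda-1 RNAi against 1 on EV in set-26(-), and 84 against 13 in hcf-1(-). It is among the members counted above as called higher in both mutants, which for such a gene is a description. None of the 3 H3.3 genes was called. his-72 had 375 and 463 CPM on hda-1 RNAi and 381 and 518 CPM on EV in control worms (log2 fold change -0.09, SE 0.26).

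The linker genes moved unequally. hil-3 was higher on hda-1 RNAi in all 3 genotypes, with 78.0 and 105 CPM on hda-1 RNAi and 12.1 and 23.9 CPM on EV in control worms (log2 fold change 2.36, SE 0.37, edgeR adjusted p = 0.0429). In set-26(-) worms it had 52.6 and 79.5 CPM on hda-1 RNAi, against 22.8 and 25.9 CPM on EV, and in hcf-1(-) worms 62.4 and 83.8 CPM on hda-1 RNAi, against 13.4 and 21.0 CPM on EV. his-24, the gene of linker histone H1.1, was called higher in set-26(-) (1.58, SE 0.23) and hcf-1(-) (1.57, SE 0.21). In control worms his-24 had 45.5 and 70.7 CPM on hda-1 RNAi and 17.3 and 31.8 CPM on EV (log2 fold change 1.26, edgeR adjusted p = 0.211, called with the population as a block). hil-1, hil-2 and hil-7 were not called in any genotype. hil-3 and his-24 passed the read minimum on EV as well, so their tests did not depend on the RNAi libraries.

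These counts rested on 2 libraries a group. With the population as a block, 20 members were called higher in control (8.64% of all genes). Of these 20, only his-38, his-40, hil-3 and his-24 were over the read minimum on EV as well. The others had to differ, as had such genes in the mutants, so these counts and those that follow are a description. In set-26(-) 14 were higher and 2 lower, his-35 and hil-1 (7.76% of all genes were higher and 8.82% lower). In hcf-1(-) 16 were higher and 2 lower, his-35 and his-41 (12.2% and 9.71%). With the tested genes held fixed, leaving out the second control RNAi library left 6 calls in control, leaving out the second set-26(-) RNAi library left 4 in set-26(-), and each hcf-1(-) library left out gave 12 or 13. With the minimum applied anew, leaving out the second control EV library left 9 in control.

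Markers and related genes were read alongside. The 25 germline genes listed summed to 52.1 and 65.9 CPM in control worms on hda-1 RNAi and 41.8 and 57.4 CPM on EV, with 0 of 7 tested called. In set-26(-) 1 of 8 was called (puf-5, higher) and in hcf-1(-) 2 of 11 (puf-5 and cpg-2, higher), where the germline sums were 79.4 and 69.8 CPM on hda-1 RNAi against 37.3 and 40.3 CPM on EV in set-26(-), and 55.3 and 56.8 CPM against 32.2 and 31.6 CPM in hcf-1(-). Of the markers of intestine (5 genes), body wall muscle (4), hypodermis (4), neurons (5) and pharynx (3), 1 was called on hda-1 RNAi at day 12, the intestinal gene ges-1, lower in hcf-1(-). Hypodermis markers summed to 47.5 and 34.2 CPM on hda-1 RNAi and 24.6 and 25.0 CPM on EV in control worms, 34.6 and 29.6 CPM against 20.2 and 25.8 CPM in set-26(-), and 31.5 and 31.9 CPM against 21.9 and 26.3 CPM in hcf-1(-), with no overlap in any genotype. Intestine markers summed to 713 and 646 CPM on hda-1 RNAi and 901 and 1266 CPM on EV in control worms. They overlapped in set-26(-) (785 and 661 CPM against 753 and 701 CPM), and had 515 and 502 CPM against 620 and 640 CPM in hcf-1(-). The part of these tissues' RNA in the histone result was not tested. None of 17 to 19 DNA replication genes tested was called in any genotype (medians 0.29, 0.43 and 0.52 on the log2 scale in control, set-26(-) and hcf-1(-), where medians of all genes were between -0.01 and 0.02). Of the genes that make or process histone transcripts or carry histones, 1 of 32 was called in control (ego-1, an RNA-directed RNA polymerase of small RNA pathways, higher) and 0 in either mutant. cdl-1, the stem-loop binding protein gene, was not called. It had 5.48 and 4.67 CPM on hda-1 RNAi and 2.78 and 2.19 CPM on EV in control worms, 10.7 and 8.70 CPM against 4.53 and 3.63 CPM in set-26(-), and 3.99 and 6.25 CPM against 3.49 and 3.23 CPM in hcf-1(-).

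At day 3, after the first days of RNAi, sums were again higher on hda-1 RNAi, and whether the difference changed with day was not tested. The core genes with no annotated 3' UTR summed to 63.2 and 44.5 CPM in control worms on hda-1 RNAi, against 29.2 and 28.2 CPM on EV. The sums were 30.1 and 31.4 CPM on hda-1 RNAi and 14.9 and 15.3 CPM on EV in set-26(-), and 23.6 and 27.1 CPM against 9.0 and 8.53 CPM in hcf-1(-). Every population had more on RNAi, by 1.58 to 3.18 times.

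Fitted over the 3 genotypes together, 5 of 21 members tested were higher on hda-1 RNAi at day 3 and 0 lower (0.319% of all genes were higher and 0.137% lower). 8 of the 21 passed the read minimum only through RNAi libraries. The share called among all genes that had enough reads on EV as well is not given. Of the 5 called, his-62, his-16 (H2A), his-15 (WBGene00001885) and his-7 (H2A) were among the 8, so they are described without a test. The other called gene was his-24, 1 of 13 members with over 10 reads in at least 1 EV library (0.84, SE 0.17, edgeR adjusted p = 0.0363). It had 14.3 and 14.7 CPM on hda-1 RNAi and 7.11 and 9.76 CPM on EV in control worms, 9.05 and 12.8 CPM against 3.66 and 6.99 CPM in set-26(-), and 10.4 and 10.3 CPM against 4.94 and 7.56 CPM in hcf-1(-). Its call was lost without 10 of the 12 libraries, 1 at a time, all except the second control and the second hcf-1(-) EV library (highest edgeR adjusted p 0.111). his-62 had 33 and 20 reads on hda-1 RNAi and 1 and 2 on EV in control worms, 13 and 25 against 2 and 7 in set-26(-), and 33 and 33 against 6 and 7 in hcf-1(-). his-60 had 11 reads in all over the 6 RNAi libraries and 3 over the 6 EV libraries, a ratio of 3.57 (95% counting interval 0.943 to 19.9). With the populations as a block, 9 members were called, all higher (0.859% of all genes were higher). Of these 9, only his-72 (0.41, edgeR adjusted p = 0.0113) and his-24 were over the read minimum on EV too, and the others had to differ. Leaving out any 1 of the 12 libraries left 2 to 4 calls.

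On hda-1 RNAi at day 12, levels of many of these transcripts were lower in the mutants than in control worms. Called lower in set-26(-) were 13 of 33 members tested and none higher (1.15% of all genes were lower and 2.1% higher), and in hcf-1(-) 12 of 33 and none higher (1.86% and 2.45%). Lower in both were 8 members, all core genes with no annotated 3' UTR: his-1, his-3, his-4, his-17, his-38, his-40, his-60 and his-61. The share of all genes lower in both is not given. The comparisons share the 2 control libraries. The read minimum counted all 3 genotypes, so a gene could pass it through control libraries, where these genes were highest. Members that passed through those libraries alone were not separated, so these counts are a description. his-3 had 5.56 and 14.5 CPM in set-26(-), 8.53 and 10.9 CPM in hcf-1(-), and 38.1 and 70.5 CPM in control (log2 fold changes -2.44 and -2.46 by mutant in that order, edgeR adjusted p = 0.0170 and 0.0145). his-60 had 12.1 and 19.1 CPM in set-26(-), 12.7 and 16.2 CPM in hcf-1(-), and 36.9 and 77.6 CPM in control (-1.88 and -1.96). his-1 was lower by 2.75 and 3.09 on the log2 scale, and in the hcf-1(-) comparison of foods it was below the read minimum.

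Outside the core genes with no annotated 3' UTR, only his-74 in set-26(-) and his-72 in hcf-1(-), both H3.3 genes, were called in these comparisons. his-74 had 4.42 and 3.27 CPM in set-26(-) and 9.29 and 11.7 CPM in control (log2 fold change -1.45, SE 0.32, edgeR adjusted p = 0.0402). his-72 had 214 and 213 CPM in hcf-1(-) and 375 and 463 CPM in control (-0.96, SE 0.23, edgeR adjusted p = 0.0428). Of the tissue markers, syp-1 was higher in both mutants, and rec-8 and unc-54 were higher and glh-1 lower in hcf-1(-), and their part in these differences was not tested. Without the second control RNAi library, which had the highest sums, 1 member was called in set-26(-) and 0 in hcf-1(-). Without the first or the second set-26(-) library 2 and 4 were called, and without either hcf-1(-) library 1.

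Whether the response to hda-1 RNAi itself differed between genotypes was tested as an interaction. No member was called for set-26(-) or hcf-1(-) against control, and neither was any of the 14836 genes tested (0% higher and 0% lower). Unadjusted p was under 0.05 for 7 and 4 members (839 and 535 of all genes), and DESeq2's Wald test also called 0 members. For hil-3 the log2 fold change on hda-1 RNAi differed from control by -0.90 (SE 0.48) in set-26(-) and by -0.25 (SE 0.48) in hcf-1(-), and for his-3 by -1.40 (SE 0.98) and -0.25 (SE 1.43). The lowest adjusted p among members was that of his-15 (WBGene00001885), singled out after its values were seen (edgeR adjusted p = 0.169 in set-26(-) and 0.194 in hcf-1(-)). It had 4.12 and 4.77 CPM on hda-1 RNAi and 0.871 and 1.73 CPM on EV in set-26(-), and 3.54 and 4.01 CPM on hda-1 RNAi and 1.06 and 1.05 CPM on EV in hcf-1(-). In control worms it had 11 and 8.01 CPM on hda-1 RNAi and 0 and 0.137 CPM on EV, or 1 read. With the populations as a block it was the 1 member called in each interaction (edgeR adjusted p = 0.00867 in set-26(-) and 0.0124 in hcf-1(-), where 0.944% and 0.303% of all genes were called lower).

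**Figure D3:**
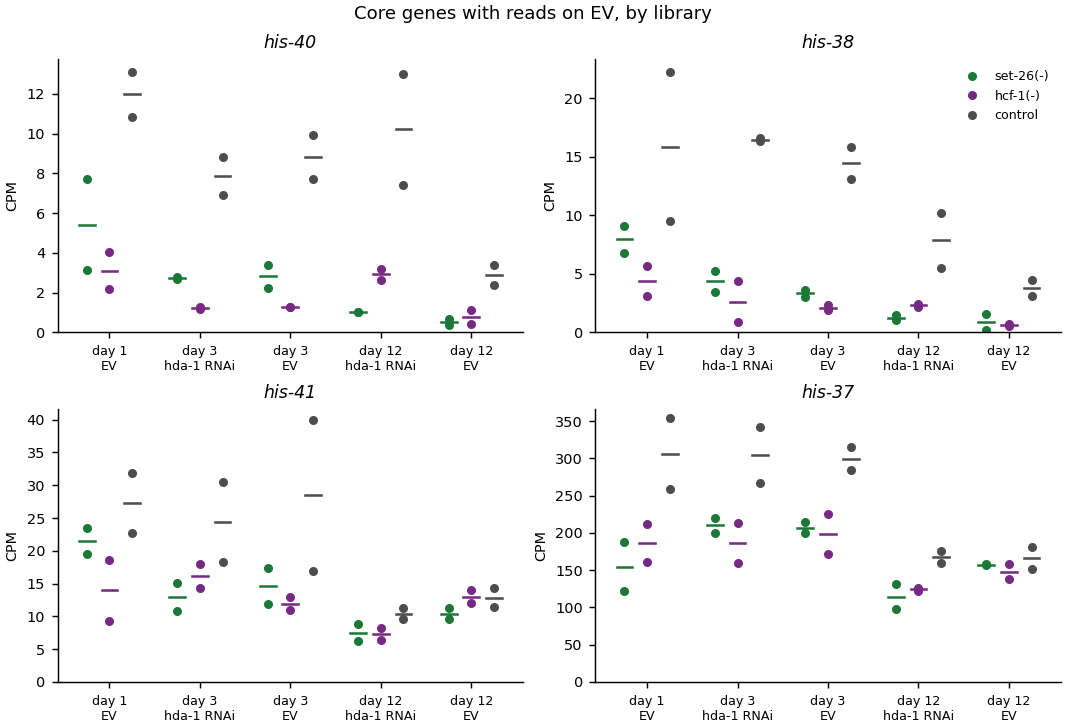
CPM (y axes, linear from 0) of his-40, his-38, his-41 and his-37 in each library, by day and by food. Points are libraries and bars are means of 2. The means of both mutants lie below that of control for his-40 and his-38 at all 5 combinations of day and food, while libraries of his-41 overlap at several.

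On EV, few histone genes were called between mutants and control, and those that were called were lower in the mutants. The pair his-38 and his-40 recurred. At day 3, his-38 had 3.66 and 3.04 CPM in set-26(-), 1.90 and 2.33 CPM in hcf-1(-), and 15.8 and 13.1 CPM in control (log2 fold change -2.09, SE 0.34, in set-26(-) and -2.75, SE 0.35, in hcf-1(-), edgeR adjusted p = 0.000277 and 2.86e-05). his-40 had 3.39 and 2.25 CPM in set-26(-), 1.27 and 1.26 CPM in hcf-1(-), and 7.74 and 9.92 CPM in control (-1.64 and -2.78). At day 3 on EV, no library of either mutant reached a control library for either gene. In that comparison, 21.3% of all genes with a read were lower without overlap in set-26(-) and 18.8% in hcf-1(-).

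In all, 2 of 11 members tested were lower in set-26(-) at day 3 (6.04% of all genes were lower and 8.17% higher), namely these 2, and 4 of 11 in hcf-1(-) (7.29% and 6.81%), which added his-41 (-1.24, SE 0.33) and his-37 (-0.59, SE 0.18). his-37 had 225 and 171 CPM in hcf-1(-) and 315 and 284 CPM in control. The call of his-40 in set-26(-) was lost without the second set-26(-) or the second control library (highest edgeR adjusted p 0.121). The call of his-41 was lost without the second control library, where its edgeR adjusted p was 0.396, and that of his-37 without either control library or the second hcf-1(-) library.

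At day 1, 2 of 15 members were lower in hcf-1(-) (5.84% of all genes were lower and 7.76% higher), again his-40 (-1.91, SE 0.50) and his-38 (-1.80, SE 0.49). Leaving out any 1 of the 4 libraries ended the call of his-40 (highest edgeR adjusted p 0.223), and each except the first control library that of his-38 (highest 0.272). In set-26(-) 1 of 15 was lower (4.19% lower and 4.45% higher). It was his-7, an H2A gene with no read in set-26(-) and 16 in control, so over 10 reads in no set-26(-) library, and its call was lost without either set-26(-) library (highest edgeR adjusted p 0.179). Without the first control library it fell below the read minimum. At day 12, no member was called in set-26(-) (0 of 15 by edgeR, 6 at unadjusted p under 0.05, 1 by DESeq2's Wald test, where 3.23% of all genes were higher and 1.45% lower), and 3 were called without the first control library. In hcf-1(-) 1 of 15 was lower (2.51% lower and 3.3% higher). It was his-72, with 200 and 200 CPM in hcf-1(-) and 381 and 518 CPM in control (-1.19, SE 0.22, edgeR adjusted p = 0.0184). Its call was lost without either hcf-1(-) library, and without the first control library 2 members were called. No member was called higher in a mutant on EV at any day. his-15 (WBGene00001885), which was not called, had 62 reads in set-26(-), 17 in hcf-1(-) and 11 in control at day 1. At day 12 it had 30 reads in set-26(-), 32 in hcf-1(-) and 1 in control.

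Tissue markers moved in the same comparisons on EV. At day 1 the germline markers summed to 83.2 and 74.3 CPM in hcf-1(-) and 29 and 31.6 CPM in control, with syp-1 and rec-8 called higher of 9 tested. The hypodermis markers summed to 128 and 79.1 CPM in hcf-1(-) and 47.2 and 43.2 CPM in control, with dpy-7 and rol-6 called higher of 4. Of the germline markers at day 3, glh-4 and syp-1 were higher in both mutants and glh-1 was lower in set-26(-). At day 12 syp-1 was higher and glh-1 lower in both, and cpg-1 was lower in set-26(-). Among markers of the other tissues, myo-3 was higher in both mutants at day 1 and in hcf-1(-) at day 3, vha-6 was lower in hcf-1(-) at day 1, vha-6 and ifb-2 were higher in set-26(-) at day 3, and unc-54 was higher and ifb-2 lower in hcf-1(-) at day 12. Their part in the histone results was not tested.

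**Figure D4:**
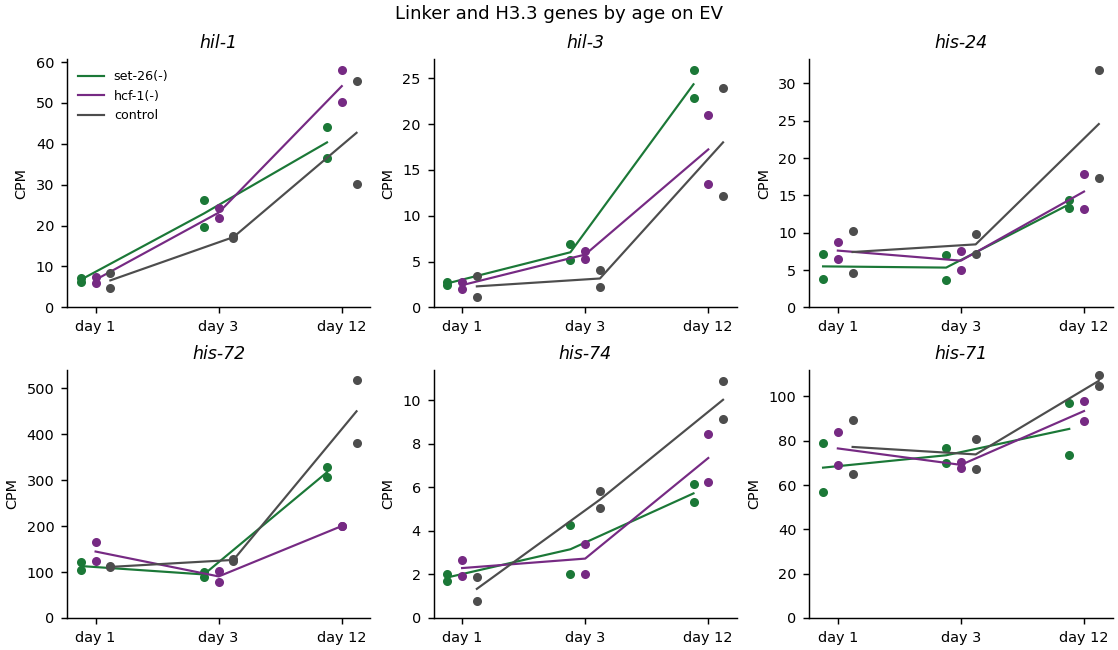
CPM (y axes, linear from 0) of 3 linker and 3 H3.3 genes on EV at days 1, 3 and 12, spaced evenly on the x axes. Points are libraries and lines join the means of 2. hil-1 and hil-3 climb with age in all 3 genotypes, his-72 reaches 381 and 518 CPM in control but 200 and 200 CPM in hcf-1(-), and his-71 was not called between days 12 and 1 in any genotype.

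With age on EV, 2, 3 and 4 of the 5 linker genes tested were higher at day 12 than at day 1 in control, set-26(-) and hcf-1(-), as were 2, 2 and 1 of the 3 H3.3 genes, and several core genes were lower. In control worms 4 of 13 members tested were higher and 3 lower (11.8% of all genes were higher and 15% lower). In set-26(-) 5 of 15 were higher and 4 lower (20.9% and 21.1%), and in hcf-1(-) 5 of 15 were higher and 3 lower (19.2% and 20.5%). The number of genes called was thus large throughout, and these shares do not set histone genes apart. Leaving out the first or the second day 12 library left 4 and 3 calls in control, and in hcf-1(-) leaving out either day 1 library left 4 and the second day 12 library 5. The genes his-74 in control, his-40 in set-26(-), and his-3, his-38 and hil-7 in hcf-1(-) had over 10 reads at 1 of the 2 ages alone, so their changes are a description.

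Tissue markers also changed with age. Body wall muscle markers summed to 4866 and 3619 CPM at day 1, 1061 and 935 CPM at day 3 and 405 and 383 CPM at day 12 in control worms, with 3 of 4 called lower at day 12 in each genotype. Intestine markers summed to 2445 and 2036 CPM at day 1, 1116 and 1144 CPM at day 3 and 901 and 1266 CPM at day 12 in control worms, and 4 of 5 were called lower in each mutant, against 2 lower and 1 higher in control. Neuron markers summed to 290 and 260 CPM at day 1, 332 and 372 CPM at day 3 and 476 and 518 CPM at day 12 in control worms, with 3, 3 and 2 of 5 called higher in set-26(-), hcf-1(-) and control. Of the germline markers tested, 2 of 5 were higher and 1 lower in set-26(-), 4 of 12 lower in hcf-1(-) and 1 of 5 higher in control. Their part in the histone changes was not tested.

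hil-2 was not called in any genotype, with log2 fold changes of -0.07 in set-26(-), -0.39 in hcf-1(-) and 1.01 in control.

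hil-1 had 4.84 and 8.37 CPM at day 1, 16.9 and 17.5 CPM at day 3 and 55.3 and 30.1 CPM at day 12 in control worms (day 12 over day 1, log2 fold change 2.65, SE 0.44, edgeR adjusted p = 0.00911). In set-26(-) the change was 2.55 (SE 0.27) and in hcf-1(-) 2.98 (SE 0.24). hil-3 rose as well, by 2.92 (SE 0.61) in control, 3.19 (SE 0.32) in set-26(-) and 2.82 (SE 0.35) in hcf-1(-), and lost its call in control without the second day 12 library. his-24 rose in set-26(-) (1.30) and hcf-1(-) (1.02), and in control its change was 1.70 with an edgeR adjusted p of 0.0524. hil-7 had a change of 1.70 in hcf-1(-), and in set-26(-) its change was 1.95 (edgeR adjusted p = 0.0552, and 0.0412 with the population as a block). The calls of his-24 were lost without the first day 1 library in set-26(-) and without the second library of either day in hcf-1(-), and those of hil-1 held with each library left out in turn in all 3 genotypes.

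Among H3.3 genes, his-74 was at 0.774 and 1.90 CPM at day 1, 5.84 and 5.04 CPM at day 3 and 10.9 and 9.15 CPM at day 12 in control worms (2.85, SE 0.50), and it rose in set-26(-) (1.60) and hcf-1(-) (1.67) too. his-72 had 381 and 518 CPM at day 12 and 112 and 110 CPM at day 1 in control worms (1.98, SE 0.30, edgeR adjusted p = 0.00702). In set-26(-) it had 328 and 306 CPM at day 12 and 121 and 104 CPM at day 1 (1.47, SE 0.23). In hcf-1(-) it had 200 and 200 CPM at day 12 and 165 and 124 CPM at day 1 (0.46, SE 0.20, edgeR adjusted p = 0.0895). his-71 was not called in any genotype.

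The difference in the age change of his-72 between hcf-1(-) and control was itself called (-1.57, SE 0.32, edgeR adjusted p = 0.0180), the 1 of 17 members tested that was (2.51% of all genes were called lower and 2.54% higher). In set-26(-) his-72 differed from control by -0.54 (SE 0.32) and 0 of 17 members were called, with 2 at unadjusted p under 0.05 (2.07% of all genes were called higher and 1.36% lower, and DESeq2's Wald test called 0 members), and 1 was called without the second control day 1 library. Between hcf-1(-) and control the call was lost without the first hcf-1(-) day 1 library, either hcf-1(-) day 12 library or the second control day 12 library (highest edgeR adjusted p 0.0913).

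The members called lower with age were all core genes. his-40 had 2.38 and 3.42 CPM at day 12 and 10.8 and 13.1 CPM at day 1 in control worms (-2.09, SE 0.38, edgeR adjusted p = 0.0118), and his-38 fell by 2.11 on the log2 scale. In control, the call of his-40 was lost without the first day 12 library and that of his-38 without either day 12 library or the second day 1 library. Both were also lower in set-26(-) (-3.38 and -3.20) and hcf-1(-) (-1.92 and -2.86), where his-40 lost its call without the second day 12 or the first day 1 hcf-1(-) library. his-41 was lower in control (-1.12, not called with the population as a block, edgeR adjusted p = 0.0892) and in set-26(-) (-1.07), his-15 (WBGene00001885) in set-26(-) (-2.0) and his-3 in hcf-1(-) (-3.39). The whole set of core genes with no annotated 3' UTR summed to 9.32 and 12.3 CPM at day 12 and 31 and 46.2 CPM at day 1 in control worms. Of these sums, his-38 and his-40 together held 5.46 and 7.92 CPM at day 12 and 20.3 and 35.4 CPM at day 1.

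Between day 3 and day 1 in control worms no member was called (0 of 11 tested by edgeR, 2 at unadjusted p under 0.05, 1 by DESeq2's Wald test, where 4.32% of all genes were higher and 5.67% lower), and leaving out the first or the second day 1 library gave 1 and 2 calls. hil-1 had a log2 fold change of 1.38 (SE 0.34, edgeR adjusted p = 0.0558) and his-74 of 2.01 (SE 0.54, adjusted p = 0.0710 by edgeR).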

How the data were processed

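The authors deposited 1 table of read counts per gene for the 30 libraries. Per the study's methods, QuantSeq 3' libraries were trimmed with Trim Galore 0.6.5 and aligned with STAR 2.7.9a to WBcel235, keeping uniquely mapped reads counted by strand, so reads shared by near-identical histone genes are absent. Gene names, coordinates and 3' UTRs came from Ensembl release 115. Histone classes came from known symbols, checked against the coding length. No genome sequence was used here.

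Counts were tested with edgeR 4.0.16 (R 4.3.3): TMM scaling (also for CPM), genes with more than 10 reads in at least 2 libraries of the fit, quasi-likelihood F test, prior count 0.125, Benjamini-Hochberg adjustment over all genes, called under 0.05. Mutants were compared within day and food with all 3 genotypes in the fit, RNAi and age comparisons used their own groups, and interactions used all genotypes. The SE is the log2 fold change over the root of F. Alternatives were DESeq2 1.42.0 size factors and its Wald test, no minimum, leaving out each library, a replicate block, and a fit with other libraries added. Named members were his-24, the H3.3 and hil genes, the 10 core genes with the highest mean CPM and, for each comparison, at most 6 called members in each direction. A few others are named where a count or locus needs them.

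Same-numbered RNAi and EV libraries came from 1 population, as did ages. Their deviations correlated at 0.468 (control), 0.488 (set-26(-)) and 0.426 (hcf-1(-)) at day 12, and at 0.00411 to 0.0626 between ages. Replicate libraries differed by far more than sampling noise (chi-square per degree of freedom 10.1 to 39.2). The study calls the replicates biological, but the labels name no separate cultures, so p-values measure the spread between these samples. The tests were tried on simulated data. The members, lists and comparisons were chosen with earlier results of these data known.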

Additional observations from a re-analysis of the deposited data

Results flagged for a closer look

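The change of his-72 between day 12 and day 1 on EV differed between hcf-1(-) and control worms, by -1.57 on the log2 scale (SE 0.32, edgeR adjusted p = 0.0180 for the difference itself). All 4 hcf-1(-) libraries lay between 124 and 200 CPM, whereas control libraries had 381 and 518 CPM at day 12 and 112 and 110 CPM at day 1. Over 12 alternatives the difference kept its direction, and it stayed under the threshold in 8.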

How the results depend on the processing

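Counts of histone genes called changed with several choices, and none of the members followed under each alternative (at most 6 called in each direction of a comparison) changed direction. DESeq2's size factors left every count within 1.5 times. DESeq2's Wald test gave 2 (set-26(-), day 1), 1 (set-26(-), day 12, EV), 2 (hcf-1(-), day 12, EV), 9 (hda-1 RNAi, day 3) and 1 (day 3 over day 1). Without a read minimum the counts were 3, 4 and 3 (set-26(-) at days 1, 3 and 12 on EV), 4 (hcf-1(-), day 12, EV), 19 (hcf-1(-), hda-1 RNAi), 14 and 21 (RNAi in set-26(-) and hcf-1(-)), 10 (RNAi, day 3), 1 (day 3 over day 1), 1 (age difference, set-26(-)) and 3 and 2 (RNAi differences, set-26(-) and hcf-1(-)). With other libraries in the fit they were 0 and 1 (set-26(-) and hcf-1(-), day 1), 4 (set-26(-), day 3), 2 (hcf-1(-), day 12, EV) and 1 (day 3 over day 1). The replicate block gave 16 in set-26(-) and 9 at day 3 for hda-1 RNAi, and 1 in each RNAi difference. In mutants against control, the labels link same-numbered libraries by the number alone, and whether they shared a batch is not known. There the replicate block gave 0 and 1 (set-26(-) and hcf-1(-), day 1), 4 (set-26(-), day 3), 2 (hcf-1(-), day 12, EV), and 21 and 19 on hda-1 RNAi, with correlations of -0.0479 to 0.342. Leaving out 1 library gave 0 to 2 and 0 to 1 (set-26(-) and hcf-1(-), day 1), 1 to 3 and 2 to 5 (day 3), 0 to 3 and 0 to 2 (day 12, EV), 1 to 12 and 0 to 9 (day 12, hda-1 RNAi), 0 to 15, 0 to 8 and 2 to 13 (RNAi in control, set-26(-) and hcf-1(-)), 2 to 4 (RNAi, day 3), 0 to 2 (day 3 over day 1), 3 to 8, 6 to 8 and 4 to 6 (age in control, set-26(-) and hcf-1(-)), 0 to 1 for each age difference and 0 to 0 for each RNAi difference. With 1 RNAi library left, genes read in RNAi libraries alone could not pass the minimum. Held to the genes of the full comparison, a choice made after seeing the data, these ranges were 6 to 15, 4 to 9 and 12 to 13. Where 1 library was left in a group, its spread was assumed to be that of the others. A count of 0 in a library allows up to 0.169 to 0.496 CPM, by its depth, so lower levels cannot be told from 0 in that library.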
